A study of Mus musculus with 2 samples.

Results

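The genes described here are 8 genes of type 17 lymphocytes, out of 31053 genes in the deposited matrices. They are the cytokine genes Il17a, Il17f and Il22, the receptor and surface protein genes Il23r, Cd163l1 and Ccr6, and the transcription factor and kinase genes Sox13 and Blk. They were listed by name, and all 8 were found in the files. They were read in cell barcodes with at least 1 UMI (unique molecular identifier, which marks 1 captured transcript) of Cd3d, Cd3e, Cd3g or Il7r and with under 1% of UMIs from the basal keratins Krt5 and Krt14. This lymphocyte gate held 718 of 8869 kept cells in the Chrna5 knockout library and 820 of 9673 in the wild-type (WT) library. The cells outside the gate served as the background.

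Dorsal skin of female C57BL/6 mice aged 6 to 8 weeks was dissociated with collagenase, and live cells, negative for the dead-cell dye SytoxBlue, were sorted and sequenced as single cells. One group was Chrna5-/-, a knockout of the nicotinic acetylcholine receptor subunit alpha 5, and the other was WT. Both carried vaseline as a cream base and were taken on day 7, and each group was 1 library (Chrna5 knockout, n = 1, and WT, n = 1). The extraction protocol mentions imiquimod, an inflammatory cream, whereas the sample labels name vaseline, and neither the number of mice in a library nor the deleted stretch of Chrna5 is stated in the labels. The knockout line was backcrossed to C57BL/6N, whereas the extraction protocol names C57BL/6J. With 1 library per genotype there is no replicate check and no test, so each difference is one between these libraries. Intervals in brackets are exact 95% intervals that cover counting error only.

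A total of 125458721 UMIs in 9696 barcodes came from the knockout and 139673385 UMIs in 10741 barcodes from WT, with medians of 12223.5 UMIs per barcode in the knockout and 12245 in WT. Gated cells were shallower, with medians of 3022.5 UMIs in the knockout and 2977 in WT. Chrna5 had 2 UMIs over all kept knockout cells and 11 over all kept WT cells, too few to check the genotype within the gate, where each library had 1. The libraries shared 34 barcodes, 1 of them gated in each.

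Interleukin 17A and 17F and interleukin 22 are secreted cytokines that act on keratinocytes, where they drive antimicrobial peptides, chemokines and proliferation. In mouse skin they come mainly from dermal gamma-delta T cells, and also from alpha-beta T helper cells and innate lymphoid cells. These cells are stimulated by interleukin 23 and interleukin 1.

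Il17a lies at chromosome 1:20730905-20734496 on the plus strand and Il17f at chromosome 1:20777146-20790617 on the minus strand, with 42649 bases between them (GRCm38, GENCODE vM21). Il22 lies at chromosome 10:118204942-118210047 (plus), Il23r at chromosome 6:67422932-67491855 (minus) and Cd163l1 at chromosome 7:140218267-140231145 (plus). Ccr6 lies at chromosome 17:8236043-8257141 (plus), Sox13 at chromosome 1:133382303-133424377 (minus) and Blk at chromosome 14:63372836-63417037 (minus). The 250 bases before the RefSeq start of transcription (GRCm38.p6) were searched on both strands for AGGTCA, a core element bound by many nuclear receptors, which reads TGACCT on the other strand. The 4 windows below, 5′ to 3′ on the gene's strand, are shown because they hold it, and the capitals mark it:
Il17a: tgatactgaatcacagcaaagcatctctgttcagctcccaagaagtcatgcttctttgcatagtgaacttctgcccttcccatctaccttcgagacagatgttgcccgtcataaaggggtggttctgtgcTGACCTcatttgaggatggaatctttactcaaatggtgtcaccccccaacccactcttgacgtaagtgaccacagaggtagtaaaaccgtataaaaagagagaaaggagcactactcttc
Il17f: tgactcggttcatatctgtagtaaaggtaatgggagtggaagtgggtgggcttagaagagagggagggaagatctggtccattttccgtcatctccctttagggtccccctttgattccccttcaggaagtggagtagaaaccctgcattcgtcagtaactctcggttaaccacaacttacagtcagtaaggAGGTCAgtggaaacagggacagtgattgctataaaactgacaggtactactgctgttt
Il23r: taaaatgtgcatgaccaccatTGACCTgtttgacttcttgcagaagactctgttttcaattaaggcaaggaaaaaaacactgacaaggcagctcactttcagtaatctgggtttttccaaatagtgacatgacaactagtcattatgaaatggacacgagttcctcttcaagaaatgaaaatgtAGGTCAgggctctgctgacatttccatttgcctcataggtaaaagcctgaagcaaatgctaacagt
Ccr6: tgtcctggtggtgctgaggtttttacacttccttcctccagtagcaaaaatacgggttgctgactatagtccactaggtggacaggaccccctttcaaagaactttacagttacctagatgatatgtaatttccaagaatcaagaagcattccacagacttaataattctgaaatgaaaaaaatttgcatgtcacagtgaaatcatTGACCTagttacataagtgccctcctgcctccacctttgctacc

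These windows are chr1:20730655-20730904 (plus) for Il17a, chr1:20784271-20784520 (minus) for Il17f, chr6:67491856-67492105 (minus) for Il23r and chr17:8235793-8236042 (plus) for Ccr6. The Il17f start used by RefSeq lies inside the longer GENCODE span of that gene. The element stood 120 to 115 bases before the start of Il17a, 58 to 53 bases before that of Il17f and 44 to 39 bases before that of Ccr6. Il23r had it at 229 to 224 and at 66 to 61 bases. A total of 7 of the 8 genes had a window, and 4 of their 8 windows held the element, as did 14.0% of all 32851 promoter windows of this length. The windows of Il22, Cd163l1 and Sox13 and a second window of Ccr6 held none, and Blk is named only. A match of 6 letters is a description of the sequence and does not show binding.

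In the lymphocyte gate, 7 of the 8 genes were lower in the knockout library than in the WT library by at least 1.5-fold in CPM (UMIs of a gene per 1000000 UMIs of the same cells), none was higher, and Ccr6 passed neither limit. Of all 11360 genes measured in the gate, with at least 20 UMIs over both libraries, 11.8% were lower by this rule and 6.62% were higher. Among the 8648 genes with sums in the range of the 8 genes, 9.53% were lower and 5.3% were higher. The median log2 ratio, knockout over WT, was −1.19 over the 8 genes, between −1.88 for Il22 and −0.54 for Ccr6, against −0.01 over all measured genes. The gate itself took close shares of the libraries, 8.10% of kept cells in the knockout [7.54 to 8.68] and 8.48% in WT [7.93 to 9.05].

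Fewer gated knockout cells held any of these transcripts. At least 1 of the 8 genes was found in 67 of 718 knockout cells (9.33%) [7.30 to 11.7] and in 158 of 820 WT cells (19.3%) [16.6 to 22.1], a ratio of 0.484 [0.358 to 0.648]. A cytokine transcript was found in 36 knockout cells (5.01%) and in 88 WT cells (10.7%), a ratio of 0.467 [0.308 to 0.696]. Cells with transcripts of at least 2 of the genes numbered 27 in the knockout (3.76%) and 88 in WT (10.7%). Up to 6 of the genes were found in 1 cell, in both libraries. Gated cells had like depth in both libraries. Thinning every cell to 1000 UMIs left 628 knockout and 750 WT cells and dropped 90 and 70 shallower ones. Il17a was then found in 1.59% of knockout cells and 6.93% of WT cells, and Cd163l1 in 2.23% and 7.20%. Blk was found in 1.43% [0.657 to 2.70] and 3.33% [2.17 to 4.88], intervals that overlap. No share over all genes was computed after thinning. The counts were too low to read for Il17f, with 7 knockout and 12 WT cells (1.11% and 1.60%). The same held for Ccr6, with 6 and 10 cells, and for Sox13, with 3 and 11. So were those for Il22, with 3 and 9, and for Il23r, with 1 and 10.

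**Figure D1:**
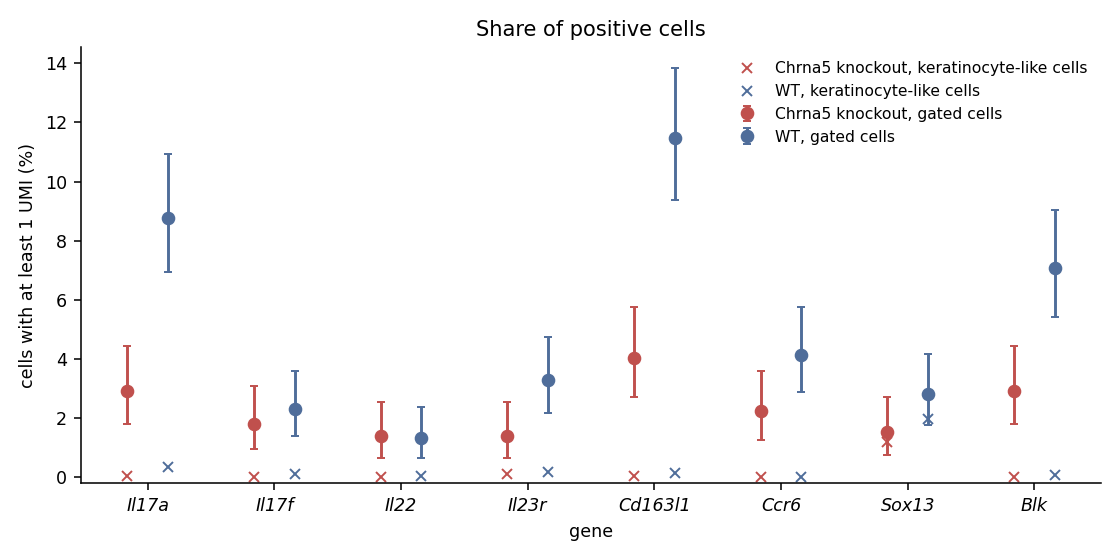
The plot gives, for each of the 8 genes, the percent of gated cells with at least 1 UMI in the Chrna5 knockout library (left of each pair) and in the WT library, with bars for exact 95% intervals of counting error, and crosses for the shares of keratinocyte-like cells outside the gate. The knockout share lies below the WT share for 7 genes, while the shares of Il22 are close, at 1.39% in the knockout and 1.34% in WT.

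Il17a, the lead cytokine of these cells, had the most UMIs of the 8 genes in both libraries. It had 202 UMIs in the knockout gate and 771 in the WT gate, which is 66.3 and 215.5 CPM, a ratio of 0.308 [0.262 to 0.360]. It was found in 21 knockout cells (2.92%) [1.82 to 4.44] and in 72 WT cells (8.78%) [6.93 to 10.9]. The positive cells held 9.62 UMIs each on average in the knockout and 10.7 in WT, with medians of 3 and 4. The CPM ratio was therefore close to the ratio of shares, 0.333 [0.195 to 0.548], while the ratio of UMIs per positive cell was 0.898. A single cell gave 75 of the knockout UMIs (37.1%) and a single cell gave 125 of the WT UMIs (16.2%), and without those cells the CPM ratio was 0.231 and that of UMIs per positive cell 0.698.

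Il17f, whose product pairs with that of Il17a or with itself, had 47 UMIs in the knockout gate and 104 in the WT gate, a CPM ratio of 0.531 [0.368 to 0.756]. The positive cells numbered 13 (1.81%) in the knockout and 19 (2.32%) in WT, and they held 3.62 and 5.47 UMIs each. The share ratio was 0.781 [0.355 to 1.67] and the ratio of UMIs per positive cell 0.661, so both entered the CPM ratio. Il17f and Il17a were found together in 6 of the 21 knockout cells with Il17a and in 10 of the 72 such WT cells.

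Il22, which acts on epithelial cells and not on the lymphocytes that make it, differed in another way. It had 30 UMIs in the knockout gate and 130 in the WT gate, a CPM ratio of 0.271 [0.176 to 0.406], yet the positive cells numbered 10 (1.39%) and 11 (1.34%), a share ratio of 1.04 [0.395 to 2.69]. They held 3.00 UMIs each on average in the knockout, with a median of 1.5, and 11.8 in WT, with a median of 8. The ratio of UMIs per positive cell was 0.254. The 3 cells with the most Il22 held 15, 3 and 3 UMIs in the knockout and 30, 28 and 24 in WT, so the difference rests on few WT cells, and without the top cell of each library the CPM ratio was 0.176. After thinning, Il22 was found in 3 of 628 knockout cells and in 9 of 750 WT cells. These thinned counts were too low to read, so the near equality of its shares was read in unthinned cells alone.

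**Figure D2:**
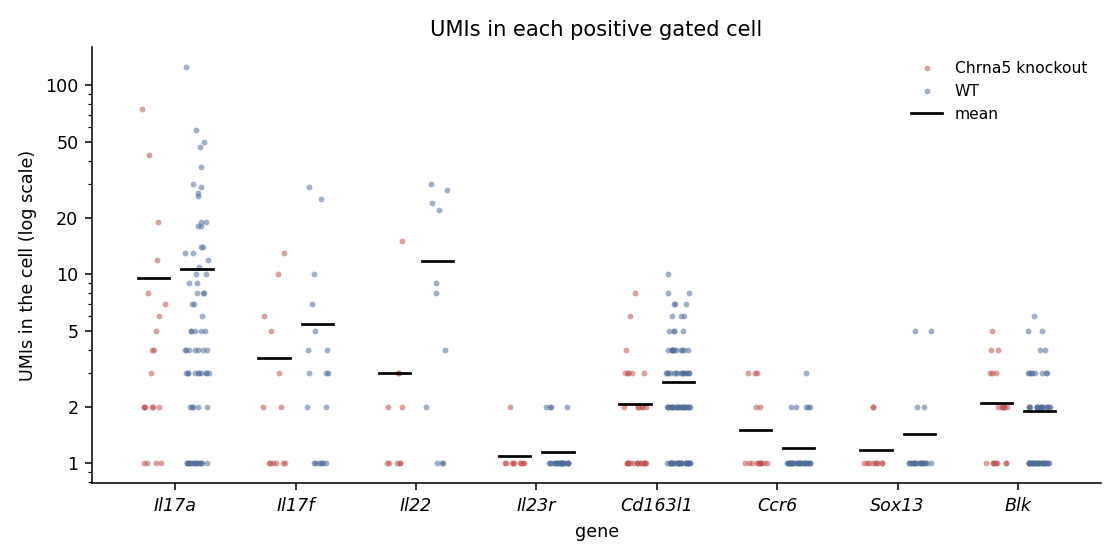
Each point is 1 gated cell with at least 1 UMI of the gene, in the Chrna5 knockout (left of each pair) and in WT, and the vertical axis gives the UMIs of that gene in the cell on a log scale, with a black line at the mean. Il17a reached 75 UMIs in a knockout cell and 125 in a WT cell, and Il22 reached 15 and 30, whereas Il23r did not pass 2 in either library.

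Among the receptor and surface protein genes, Cd163l1, which encodes the scavenger receptor SCART1 of gamma-delta T cells, was found in the most cells. It had 60 UMIs in 29 knockout cells (4.04%) [2.72 to 5.75] and 255 UMIs in 94 WT cells (11.5%) [9.36 to 13.8]. Its CPM ratio was 0.276 [0.205 to 0.368], its share ratio 0.352 [0.224 to 0.539] and its ratio of UMIs per positive cell 0.763. Il23r, the receptor subunit specific for interleukin 23, had 11 UMIs in 10 knockout cells (1.39%) and 31 UMIs in 27 WT cells (3.29%). Nearly every cell with Il23r held 1 UMI, so its CPM ratio of 0.417 [0.189 to 0.852] and its share ratio of 0.423 [0.183 to 0.902] were nearly equal. After thinning, Il23r was left with 1 UMI in the knockout and 10 in WT.

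Ccr6, the receptor through which these cells follow the chemokine CCL20, had 24 UMIs in 16 knockout cells (2.23%) and 41 UMIs in 34 WT cells (4.15%). Its share ratio was 0.537 [0.277 to 1.00], but the ratio of UMIs per positive cell was 1.24. The CPM ratio, 0.688 [0.398 to 1.17], did not pass 1.5-fold.

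Sox13, a transcription factor needed for the maturation of interleukin 17-producing gamma-delta T cells, had 13 UMIs in 11 knockout cells (1.53%) and 33 UMIs in 23 WT cells (2.80%). Its CPM ratio was 0.463 [0.224 to 0.903] and its share ratio 0.546 [0.240 to 1.17]. Blk, a Src family kinase known from B cells and from these T cells, had 44 UMIs in 21 knockout cells (2.92%) and 110 UMIs in 58 WT cells (7.07%). The CPM ratio of Blk was 0.470 [0.324 to 0.672] and its share ratio 0.414 [0.238 to 0.692], while UMIs per positive cell were alike, at 2.10 in the knockout and 1.90 in WT. Of 6 B cell markers, 2 had UMIs in the gate of each library, with summed levels of 75.5 CPM in the knockout and 70.7 CPM in WT, and the defining markers Ms4a1 and Pax5 were at 0 in both.

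**Figure D3:**
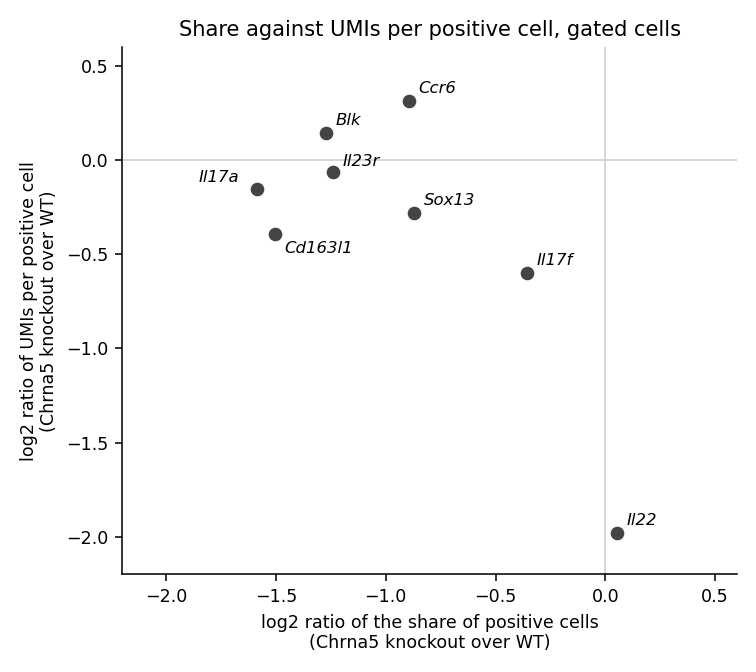
For each gene the log2 ratio of the share of positive cells (horizontal axis) is plotted against the log2 ratio of UMIs per positive cell (vertical axis), both as knockout over WT in gated cells. Il17a (−1.59 and −0.15), Cd163l1 (−1.50 and −0.39), Il23r (−1.24 and −0.06) and Blk (−1.27 and 0.14) lie far along the share axis, and Il22 (0.05 and −1.98) lies along the other.

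The gated cells were clustered on genes that did not include these 8 or the gate genes, and the clusters were named from marker lists. Other genes of the type 17 program were not left out of the clustering. Cluster 6 was named type 17 T cell-like because that list scored highest, with 5 of its 10 markers found in at least 25% of cells. Its leading genes included Actn2, which marks these cells. It held 38 gated knockout cells (5.29%) [3.77 to 7.19] and 138 gated WT cells (16.8%) [14.3 to 19.6], a ratio of 0.314 [0.214 to 0.453]. Trdc, the delta chain constant gene, was found in 20 of these knockout cells (52.6%) and in 88 of these WT cells (63.8%). The beta chain constant gene Trbc2 was found in 52.6% and 55.8%, Trbc1 in 44.7% and 47.8%, and the alpha chain gene Trac in 10.5% and 15.2%. In dendritic epidermal T cell-like cells Trbc2 was found in 57.0% and 55.7%. Of 10 alpha-beta T cell markers, 8 had UMIs in cluster 6 in each library, at 896 CPM in the knockout and 1177 CPM in WT. Counting any UMI, all 10 type 17 markers were found in cluster 6, with summed levels of 1612 CPM in the knockout and 1920 CPM in WT. The list that scored second was that of group 2 innate lymphoid cells. Of its 10 markers, 5 had UMIs in cluster 6 in the knockout and 8 in WT, at 2013 and 2545 CPM. Of 10 dendritic epidermal T cell markers, 9 had UMIs in cluster 6 in each library, with summed levels of 1629 CPM in the knockout and 1399 CPM in WT, and Trdv4 was found in 36.8% and 40.6% of its cells. Tcrg-V5, the gamma chain of those cells, was at 0 in cluster 6, and was found in 12.4% of dendritic epidermal T cell-like cells in the knockout and 11.6% in WT. Dendritic epidermal T cell-like clusters, the resident gamma-delta T cells of mouse epidermis, held 467 gated knockout cells (65.0%) and 406 gated WT cells (49.5%), and an alpha-beta T cell-like cluster held 62 (8.64%) and 95 (11.6%). The gate also took in cells of clusters led by other cell types, 26 knockout and 34 WT dermal papilla and sheath-like, 20 and 42 melanocyte-like, 45 and 41 keratinocyte-like and 31 and 56 Langerhans cell-like cells. In the T and innate lymphoid cell-like clusters alone, the ratio for cells with at least 1 of the 8 genes was 0.437, and the CPM ratio was 0.264 for Il17a, 0.252 for Sox13 and 0.579, past 1.5-fold, for Ccr6.

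Summed over the 8 genes, cluster 6 held 80.0% of the UMIs in the knockout gate and 81.2% in the WT gate. Il17a, with 202 and 771 UMIs, weighed most in these sums. The share of cluster 6 was 96.0% in the knockout and 94.0% in WT for Il17a, and 100% and 92.7% for Blk. Of the Cd163l1 UMIs, 30 of 60 were in this cluster in the knockout and 221 of 255 (86.7%) in WT. Il22 stood apart, with 6 of its 30 UMIs in this cluster in the knockout and 12 of 130 (9.23%) in WT. Sox13 was also spread, at 23.1% in the knockout and 42.4% in WT, and gated melanocyte-like cells held 6 of its 13 knockout UMIs and 13 of its 33 WT UMIs.

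**Figure D4:**
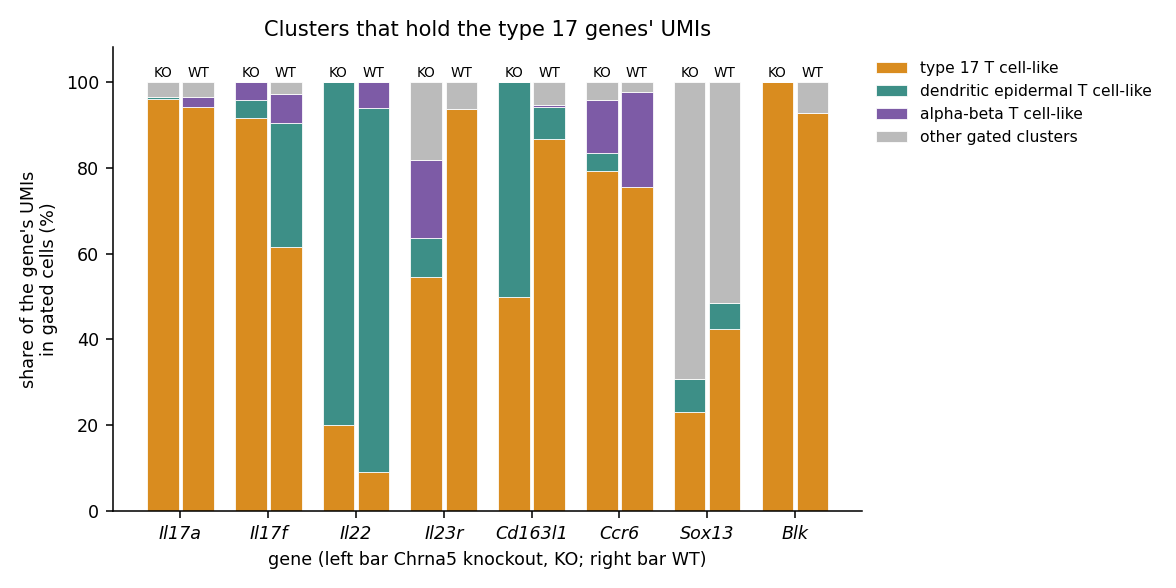
Stacked bars give, for each gene, the percent of its gated UMIs that fell in the type 17, dendritic epidermal and alpha-beta T cell-like classes and in all other gated clusters, with the Chrna5 knockout bar left of the WT bar. Il17a and Blk are nearly filled by the type 17 T cell-like class in both libraries, while Il22 is mostly in the dendritic epidermal T cell-like class, at 80.0% in the knockout and 84.6% in WT.

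Per cell of cluster 6, the genes did not share 1 direction. At least 1 of the 8 was found in 29 of 38 knockout cells (76.3%) and in 105 of 138 WT cells (76.1%). Of the 6 genes measured there, Cd163l1 was lower in the knockout, Il17f, Ccr6 and Blk were higher, and Il17a and Il23r passed neither limit. Il22, with 6 knockout and 12 WT UMIs, and Sox13, with 3 and 14, had under 20 UMIs there. In this cluster 17.7% of all 3410 measured genes were lower and 15.1% were higher, so that calls in either direction were common. The median log2 ratio was 0.28 over the 6 genes and −0.01 over all measured genes.

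Il17a was found in 19 of the 38 knockout cells of cluster 6 and in 62 of the 138 WT cells (44.9%), with 1655 and 1731 CPM, a ratio of 0.956 [0.812 to 1.12] that became 0.726 without the cell with the most Il17a in each library. Cd163l1 was found in 12 knockout cells (31.6%) and 75 WT cells (54.3%), with a CPM ratio of 0.485 [0.320 to 0.712]. Il17f had 43 UMIs in 10 knockout cells (26.3%) and 64 UMIs in 12 WT cells (8.70%), a CPM ratio of 2.40 [1.59 to 3.59]. Il17f was thus lower over the whole gate and higher within cluster 6, whose share of the gate had a ratio of 0.314. Outside cluster 6, 30 of its WT UMIs lay in dendritic epidermal T cell-like cells, 29 of them in 1 cell. Ccr6 was found in 13 knockout cells (34.2%) and 27 WT cells (19.6%), with a ratio of 2.19 [1.17 to 4.0]. Blk was found in 21 knockout cells (55.3%) and 55 WT cells (39.9%), with a ratio of 1.54 [1.06 to 2.22], which did not pass 1.5-fold without the top cell of each library.

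In the dendritic epidermal T cell-like clusters Il22 had the most WT UMIs of the 8 genes. It had 24 UMIs in 7 of 467 knockout cells and 110 UMIs in 7 of 406 WT cells, a CPM ratio of 0.167 [0.102 to 0.261] and a share ratio of 0.869 [0.260 to 2.90]. The 7 cells came from 4 clusters in each library. The cells with the most Il22 held 30 and 28 UMIs in WT and 15 and 3 in the knockout. The CPM ratio thus rests on few cells, and its interval does not cover the spread between cells. Il17a had 1 UMI there in each library, and Blk had none. Cd163l1 had 30 UMIs in 17 knockout cells (3.64%) and 19 UMIs in 13 WT cells (3.20%), a ratio of 1.21 [0.657 to 2.27], so the low Cd163l1 of the whole knockout gate was not seen in these cells. In the alpha-beta T cell-like cluster at least 1 of the 8 genes was found in 1 of 62 knockout cells and in 14 of 95 WT cells, and Il17a had 0 and 17 UMIs. The group 2 innate lymphoid cell-like cluster, with 29 knockout and 8 WT cells, held none of the 8.

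Outside the gate these transcripts were rare, apart from Sox13. Keratinocyte-like cells, with medians of 14243 UMIs in the knockout and 14521 in WT, should not make interleukin 17A. Il17a was found in 3 of 6939 of them in the knockout (0.0432%) and in 26 of 7435 in WT (0.350%), far below the shares in the shallower gate. The part of free RNA in these UMIs was not tested. Cd163l1 was found in 4 knockout and 11 WT keratinocyte-like cells and Blk in 0 and 6. Il17f was found in 1 such knockout cell and 9 such WT cells, Il22 in 1 and 3, Il23r in 9 and 13, and Ccr6 in 1 of each. Sox13, which is also expressed in other skin cells, was found in 82 keratinocyte-like cells of the knockout (1.18%) and 148 of WT (1.99%), and in 34 dermal papilla and sheath-like cells of the knockout (6.92%) and 63 of WT (11.2%). The gate share of Sox13, 1.53% in the knockout and 2.80% in WT, was below that of dermal papilla and sheath-like cells.

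A list of 28 further genes of the type 17 program, 10 of them also markers of the cluster, was read in the gate. Of the 24 measured, 10 were lower in the knockout and 1 was higher, with a median log2 ratio of −0.38. Over all measured genes of the gate, 11.8% were lower and 6.62% were higher. The lower genes included the transcription factors Maf (0.613), Batf (0.608) and Irf4 (0.469), the receptors Il1r1 (0.552), Il17re (0.587) and Ccr2 (0.599), Actn2 (0.250), 5830411N06Rik (0.258) and Tcrg-V6 (0.548). Csf2, which encodes the cytokine GM-CSF, had 201 knockout and 143 WT UMIs, a ratio of 1.65 [1.33 to 2.06]. Only 3 of these knockout UMIs and 18 of these WT UMIs lay in cluster 6, so the higher Csf2 of the gate was not a value of that cluster. Csf2 was among the leading genes of the group 2 innate lymphoid cell-like cluster, which held 29 knockout and 8 WT cells. The part of that cluster in the Csf2 ratio was not tested. Within cluster 6, 6 of the 21 measured were lower and 2 were higher, beside 17.7% and 15.1% of all genes measured there. The lower ones there were Stat3 (0.463), Zbtb16 (0.541), Ccr2 (0.595), Actn2 (0.662), 5830411N06Rik (0.521) and Csf2 (0.595). The higher ones were Ahr (2.98) and Ramp1 (1.70). The intervals of Zbtb16, Actn2, 5830411N06Rik, Csf2 and Ramp1 included 1. Zbtb16 had 5 knockout and 33 WT UMIs there, and 5830411N06Rik had 7 and 48.

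Cells with at least 2 of the 8 transcripts shared other genes in both libraries. Of 1689 genes ranked by the lower of the library ratios of CPM, in cells with at least 2 of the genes over cells with none, the 10 most alike were Actn2, Pdcd1, Crmp1, Arl5c, Ikzf3, Cpm, Il1r1, Gpr65, Ckb and Gm26740. Actn2 was 57.8 times as high in such cells of the knockout, 27 against 651 cells, and 69.2 times in WT, 88 against 662 cells. Pdcd1, which encodes the inhibitory receptor PD-1, was at 199 CPM in such cells against 6.64 CPM in cells with none in the knockout, and at 164 against 5.54 CPM in WT. Il1r1, the receptor for interleukin 1, was 10.3 times as high in the knockout and 15.4 times in WT. The cells compared had like depth, with medians of 3271 and 2989 UMIs in the knockout and 3138 and 2908 in WT.

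**Figure D5:**
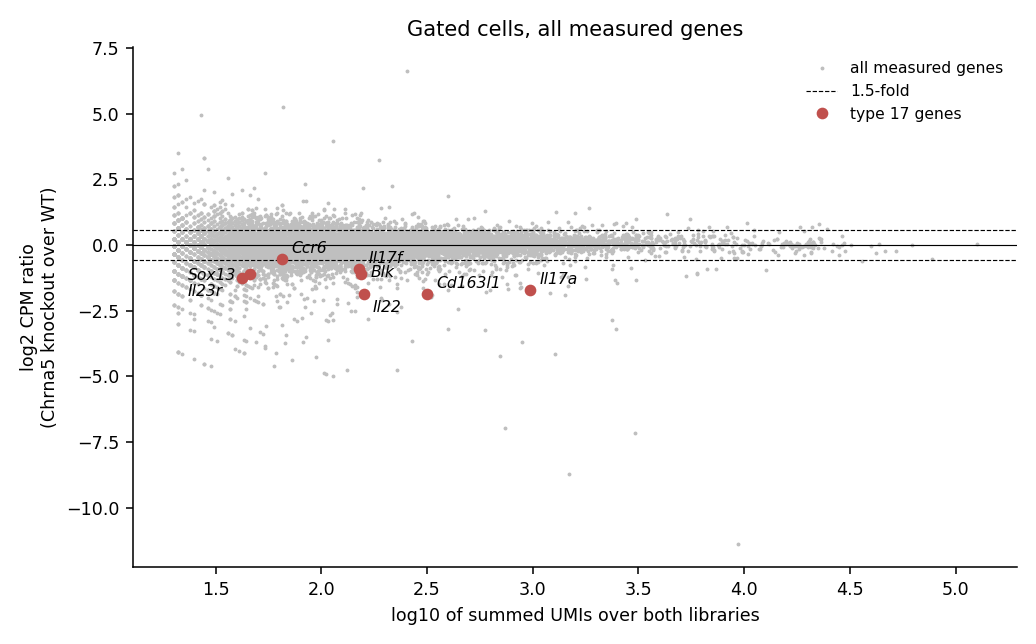
Every gene measured in the gate is a grey point, with the log10 of its summed UMIs over both libraries on the horizontal axis and the log2 CPM ratio, knockout over WT, on the vertical axis, and dashed lines mark 1.5-fold. The 8 type 17 genes, in red, lie between −1.88 and −0.54, all below the median of all measured genes at −0.01, among the 11.8% of genes that were lower except Ccr6.

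The upstream signals were read over all kept cells, where 10.8% of 16057 measured genes were lower in the knockout and 3.79% were higher. Of 9 inducers and ligands, 5 were lower and 1 was higher. Ccl20, the ligand of Ccr6, had 5399 UMIs in the knockout and 24539 in WT, a ratio of 0.245 [0.237 to 0.252], and most of these were in keratinocyte-like cells, where the ratio was 0.237. Il23a, the subunit particular to interleukin 23, had 126 UMIs in the knockout and 367 in WT, a ratio of 0.382 [0.309 to 0.469]. Il1b (0.471), Il1a (0.646) and Il18 (0.597) were lower as well, and Il12b, the other subunit of interleukin 23, was higher on 20 knockout and 13 WT UMIs, with a ratio of 1.71 [0.810 to 3.74]. In keratinocyte-like cells, where 9.83% of 14594 genes were lower and 4.11% were higher, the same 5 genes were lower. Different clusters made up much of that class in each library: of the clusters of all kept cells, cluster 10 held 418 knockout and 1242 WT cells, cluster 11 held 1514 and 651, and cluster 5 held 503 and 144. Their part in these ratios was not tested. Langerhans cell-like cells, where 16.4% of 3949 genes were lower and 17% were higher, held 120 Il1b UMIs in the knockout and 312 in WT, a ratio of 0.944 [0.758 to 1.17]. Their depth differed, with medians of 1087.5 UMIs in the knockout and 3763.5 in WT. Of the 4 inducers measured there, Il18 was higher, with 22 knockout and 33 WT UMIs and a ratio of 1.64 [0.909 to 2.89]. Il18 was nevertheless found in fewer of the knockout cells (17.2%) than of the WT cells (26.5%). Ccl20 was lower, with 0 and 32 UMIs and a ratio bounded at 0.230 by a floor of 3 counts. Its WT UMIs lay in 5.88% of the WT cells. Tgfb1 (0.913) passed neither limit.

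Receptor and target genes were also read over all kept cells, where 10.8% of measured genes were lower and 3.79% were higher. Of 5 receptor genes for these cytokines, Il10rb was lower at 0.666 and the other 4 passed neither limit, up to 1.27 for Il22ra2. Of 14 keratinocyte genes known to respond to interleukin 17 or 22, 9 were measured, 4 were lower and 1 was higher. The lower ones were Lcn2 (0.290), S100a8 (0.641), Defb14 (0.529) and Il19 (0.262). Knockout and WT UMIs were 56 and 215 for Lcn2, 30 and 63 for Defb14, and 12 and 51 for Il19. The higher one was the chemokine gene Cxcl1 (1.52), and Nfkbiz (1.03) passed neither limit. In keratinocyte-like cells Lcn2 (0.347), Defb14 (0.506) and Il19 (0.419) were lower, while S100a8 (0.827) and Cxcl1 (1.45) passed neither limit. Of all genes measured there, 9.83% were lower and 4.11% were higher. Defb14 had 29 knockout and 62 WT UMIs there, and Il19 had 12 and 31. The part of the differing keratinocyte-like clusters in these ratios was not tested. Of 6 neutrophil markers, S100a8 and S100a9 had UMIs in the lymphocyte gate, with summed levels of 2.63 CPM in the knockout and 3.91 CPM in WT, and Csf3r, Retnlg, Cxcr2 and Ly6g were at 0.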

How the data were processed

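The deposited matrices held whole-number UMI counts per gene and barcode, without normalization, per the file headers. Cell Ranger 3.0.2, Seurat 3.0 and mm10 are named in the submitters' processing notes, and the file headers name software version 3.1.0. Cells with at least 500 UMIs, 300 genes and at most 20% mitochondrial UMIs were kept, leaving 9308 knockout and 10160 WT barcodes. Scrublet in scanpy 1.11.5 then removed 439 knockout barcodes (4.72%) and 487 WT barcodes (4.79%) with a score above 0.25. Gated cells were clustered on 2000 variable genes with 20 components, 15 neighbours and Leiden (igraph 0.11.9) at resolution 1. A cluster was named "-like" after its best-scoring marker list, among lists with at least 3 markers found in at least 25% of its cells. The score was the mean, over a list's markers, of the CPM over the highest CPM in any cluster. A name was withdrawn only if no listed marker stood among the 10 leading genes and the median depth was far below that of the library. Several keratinocyte-like clusters of all kept cells had no listed marker among their leading genes. All kept cells were clustered likewise with 30 components. CPM were computed from summed counts, and ratios are knockout over WT. Shares have Clopper-Pearson intervals, and ratios of sums have conditional binomial ones (Python 3.11.15 with numpy 2.4.6, scipy 1.17.1, matplotlib 3.10.9 and pandas 2.3.3). A count of 0 was set to 3 counts over the class for a ratio. "Lower" and "higher" mean a ratio past 1.5-fold, whatever its interval, without a test. The genes named are the 8, every list gene past 1.5-fold or at the end of its list, and the 10 most alike. Nfkbiz, S100a8 and Cxcl1 in keratinocyte-like cells, the T cell receptor genes and the absent B cell and neutrophil genes were named in addition. Some genes of the lists are not reported here. The genes, lists and filters were chosen with earlier results of these data known. The script was checked on simulated counts. Gene positions are from GENCODE vM21 and promoter windows from RefSeq.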

Additional observations from a re-analysis of the deposited data

How the results depend on the processing

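Of 342 recomputed values, 335 stayed within the counting interval of the main value and 7 moved outside it. This bar was low, because many alternatives reuse most of the same cells and the intervals of low counts are wide. The share ratio of Il22 ran from 0.398 to 1.13 and stayed within its interval of 0.395 to 2.69. A reversal was scored only for values past 1.5-fold in the main setting, and 0 of those reversed. Values within 1.5-fold could cross 1, as did UMIs per positive cell of Ccr6, between 0.913 and 1.29. Recomputing without the minimum of 20 UMIs could not change the median, because all 8 genes passed it. The ratio for cells with at least 1 of the 8 genes lay between 0.417 and 0.484, that for a cytokine between 0.341 and 0.493, that for the gate between 0.932 and 1.02, and the median log2 ratio between −1.80 and −1.18. Il17a, Il17f, Il22, Il23r, Cd163l1, Sox13 and Blk were lower past 1.5-fold under every alternative for the gate. Ccr6 lay between 0.524 and 0.717 and passed the limit without doublet removal (0.524), with every barcode (0.526), with the stricter filter (0.660), as a mean over cells (0.653), without the top cells (0.650) and in T and innate lymphoid cell-like clusters alone (0.579), an alternative chosen after seeing the data. Sox13 was 0.268 with 2 gate UMIs required, 0.299 after thinning and 0.252 in those clusters alone, and Il23r was 0.119 after thinning. Without the top cells Il22 was 0.176. The ratio of UMIs per positive cell of Il17a was 1.18 after thinning and 0.698 without the top cells, and that of Il22 was 0.574 after thinning. No paired analysis was possible because each genotype had 1 library. Il23r, Sox13 and Ccr6 had the fewest UMIs of the 8 genes, and the shares of cells depend on depth.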

Other observations

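Among the barcodes removed by the filters and the doublet score, 827 in the knockout and 1068 in WT, Il17a had 47 UMIs in 1 knockout barcode and 94 UMIs in 16 WT barcodes. An unnamed cluster of all kept cells, led by Srgn, Icos and Cd52, held 180 knockout and 324 WT cells, most of them inside the gate. Its ungated cells, 44 in the knockout and 76 in WT with medians of 942 and 905 UMIs, held no Il17a or Cd163l1 in the knockout, and 12 UMIs of Il17a and 18 of Cd163l1 in WT. A count of 0 cannot show absence at this depth.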
